A study of Drosophila melanogaster with 12 samples.

Results

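The nuclear genes of the mitochondrial respiratory chain and of ATP synthase were followed in eye-antennal imaginal discs of Drosophila melanogaster larvae of 4 genotypes. They were taken as the probe sets whose single gene symbol in the array's annotation begins with ND-, UQCR-, COX or ATPsyn, or is SdhA, SdhB, SdhC, SdhD, RFeSP, Cyt-c1 or Cyt-c-p. This gave 80 probe sets for 71 genes, of 11982 genes that have a probe set carrying their symbol alone. For the 7 genes with several probe sets, the one with the highest mean signal stands for the gene. Of the 71 genes, 32 belong by name to complex I, 3 to complex II, 8 to complex III, 14 to complex IV and 14 to complex V. SdhA, Cyt-c-p and the genes of the mitochondrial genome were not analysed here.

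The respiratory chain sits in the inner membrane of the mitochondrion and passes electrons from food molecules to oxygen. Complex I takes electrons from NADH and complex II, succinate dehydrogenase, takes them from succinate, an intermediate of the citric acid cycle. Complex III hands them to cytochrome c and complex IV, cytochrome c oxidase, hands them to oxygen. Complexes I, III and IV pump protons as they do so, and complex V, ATP synthase, lets the protons back through a rotating ring to make ATP. All the genes described here lie in the nucleus, and their proteins are imported and assembled with the few subunits that the mitochondrial genome encodes. Drosophila also has paralogs of many subunits, named after the subunit with a final L, several of which are known from the testis.

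Each genotype was measured on 3 Affymetrix arrays, labelled as biological replicates, and each array took RNA from 30 pairs of discs of wandering larvae in the third instar. In the first genotype the eyeless driver ey-Gal4 expressed the transgene UAS-wge in larvae that carried the alleles Su(var)3-9[1] and Su(var)3-9[2], and it is called the allele pair below. The second was ey>wge, with driver and transgene and without those alleles. The controls were UAS-wge, the transgene alone, and ey-Gal4, the driver alone. The gene wge, winged eye, encodes a chromatin protein, and Su(var)3-9 encodes a histone methyltransferase of heterochromatin. The eyeless enhancer drives expression in the developing eye-antennal disc, and whole discs were taken. The alleles were not measured apart from winged eye, so what they do by themselves and what they do in its presence cannot be told apart.

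The deposited values were array signal intensities, whose precision is limited by having 3 arrays for each genotype. Of 18952 probe sets 13817 passed the filter on low signal and were tested together. The median signal was 39.1 to 44.6 on 10 arrays, against 33.2 and 34.2 on allele-pair replicates 2 and 3. On those replicates the signal relative to the mean of the ey>wge arrays also fell with the span of the gene on the genome. For an ey>wge array the mean of the others of its genotype was used. The Spearman correlations over probe sets of single genes were -0.30 and -0.40, against -0.03 to 0.16 on the other arrays. The main counts and medians for the allele pair are therefore also given for replicate 1 alone and with this trend removed. In a fit with replicate 1 alone, that array is assumed to vary like those of the other genotypes. The 9 markers of the eye disc were all present on the arrays, with a summed signal of 25565 to 28897 in UAS-wge and 23173 to 27790 in ey-Gal4. The lists of genes and the members were chosen with results of these data known.

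Most subunits of the 5 complexes were strongly expressed in the discs, and most of their paralogs were near background. Of 53 subunits, 52 passed the filter, and 44 of these lay above 1000 on all 12 arrays, where the 40th percentile of an array lay between 21.2 and 28.6. Mean signals ran up to 18387 for ND-MLRQ in complex I, 2599 for SdhC in complex II, 7285 for UQCR-6.4 in complex III, 9490 for COX8 in complex IV and 17079 for ATPsynC in complex V. Signals of different probe sets also depend on their probes, so these levels do not rank the genes. The lowest of the tested subunits were ND-B12 in complex I at 93.7 and UQCR-11 in complex III at 146, and ND-B8, at 8.98, was the subunit that did not pass.

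Of the 18 genes named after a subunit with a final L, L1 or L2, 10 passed the filter and 17 had a mean under 40. The lowest was ND-51L1 at 4.18, and without ATPsynepsilonL the highest was ATPsynbetaL at 36.8, with no array above 88.2. Of these 18 genes, 12 have the subunit they are named after among the members, as ND-20L (5.97), COX4L (19.1), COX5BL (12.7), COX7AL (9.24), UQCR-14L (17.5) and ATPsynCF6L (15.4) do. The remaining 6 of these pairs also had the L gene under 40, namely ND-51L1, ND-51L2 (19.1), ND-B14.5AL (24.5), UQCR-11L (9.54), COX7AL2 (19.0) and ATPsynbetaL. Testis markers were measured as a check of the tissue. Of 8, 5 did not pass the filter (aly, can, sa, dj and Mst87F), bam and betaTub85D had group means from 16.5 to 68.6, and mia had group means from 450.2 to 534.5. None of the 18 L genes lies on the X chromosome, against 10 of the 53 subunits. The share of all genes on the X was not counted, so this is not read as a trait of the L genes.

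ATPsynepsilonL, named after the epsilon subunit of the rotor of ATP synthase, was the L gene with a clear signal. The epsilon subunit itself, sun, is not among the members. Its probe set had a mean signal of 142, and that of ATPsynepsilonL had 186. Signals of different probe sets also depend on their probes, so these levels do not rank the genes. ATPsynepsilonL read 293.5, 395.4 and 354.2 with the allele pair and 155.5, 147 and 131.5 in ey>wge. In the controls its values were 97.8, 92.3 and 101.3 in UAS-wge and 153.8, 191.5 and 113.9 in ey-Gal4. All 3 allele-pair arrays lay above every other array. The change was 1.17 ± 0.23 (log2, SE) against ey>wge, with a limma adjusted p of 0.00602, and 1.40 ± 0.20 against both controls (adjusted p = 9.41e-05), the largest change of any member in these comparisons. With replicate 1 as the only allele-pair array the change against ey>wge was 0.95 ± 0.32 and did not pass (adjusted p = 0.226), and against both controls it was 1.18 and passed (adjusted p = 0.0317). After removal of the span trend it passed in both comparisons, at 1.08 (adjusted p = 0.00822) and 1.28 (adjusted p = 0.000117).

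**Figure D1:**
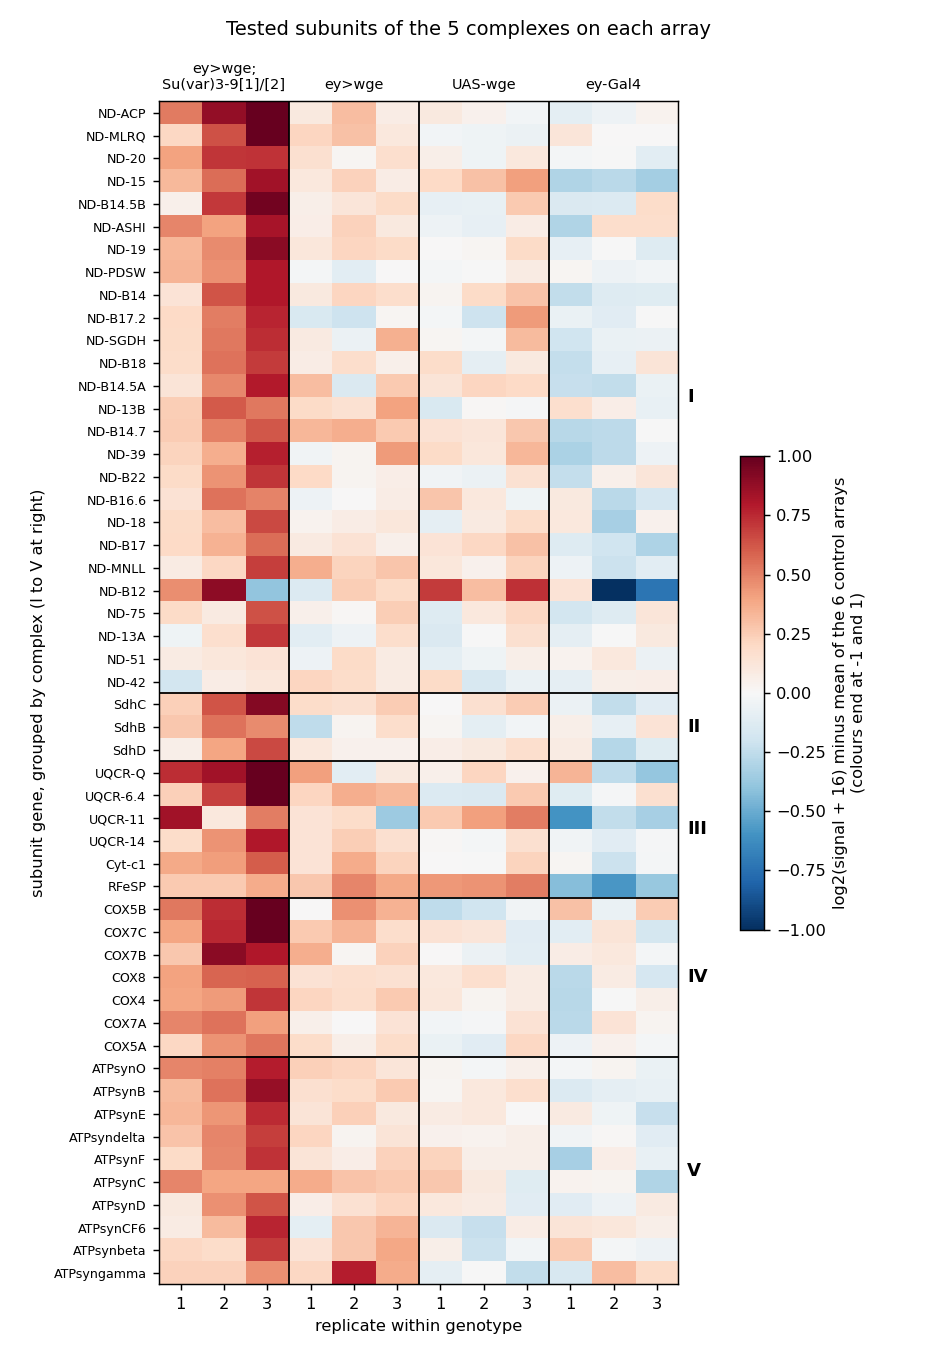
Each row is a tested subunit and each column an array; the colour is log2(signal + 16) minus the mean of the 6 control arrays, and black lines part the complexes and the genotypes. The 3 allele-pair arrays are mostly red in all 5 complexes, least on replicate 1 and most on replicate 3, ey>wge is pale red, and RFeSP and ND-15 are blue in ey-Gal4 and red elsewhere.

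The allele pair was compared with ey>wge, which has the driver and the transgene without the alleles. No array held the genetic background of the alleles without the alleles themselves, so alleles and background cannot be told apart. Subunit signals were higher with the allele pair, by a median of 0.36 on the log2 scale over the 52 tested subunits. The median over all 13817 probe sets was -0.08. Most subunits were far brighter than most probe sets, so here and below all probe sets are not a baseline of like signal. Of the 62 tested members 8 rose and none fell, 7 of them subunits. Over all probe sets 6.8% were called in either direction and 2.23% were called higher. In bulk discs, a difference in the mix of cells and a difference in RNA per cell cannot be told apart. The arrays of the genotypes did not overlap, with all 3 allele-pair arrays above all 3 ey>wge arrays, for 25 of 52 subunits, against 8.63% of all probe sets.

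Of the subunits that rose, 4 belong to complex I. ND-ACP, the mitochondrial acyl carrier protein, which doubles as a subunit of complex I, read 4254.1, 5461.3 and 6703.8 with the allele pair and 3174.5, 3659.8 and 3112.7 in ey>wge. The controls read much as ey>wge did, between 2765.6 and 3166.8. The change was 0.70 ± 0.14 (adjusted p = 0.00738), and its other probe sets rose by 0.61, which passed, and 0.55, which did not (adjusted p = 0.075). ND-B17.2, an accessory subunit, rose by 0.60 ± 0.16 (adjusted p = 0.0341), with 2323.6, 2897.5 and 3436.4 against 1819.3, 1754.3 and 2053.8. ND-PDSW, an accessory subunit of the membrane arm, rose by 0.57 ± 0.13 (adjusted p = 0.0121), with 3111.1, 3380.2 and 4292.7 against 2427.8, 2279.6 and 2467.1. ND-20, a core subunit that holds an iron-sulfur cluster at the end of the electron path to ubiquinone, rose by 0.49 ± 0.12 (adjusted p = 0.0209), with 3157.5, 3936.1 and 3944.9 against 2676, 2428.8 and 2694.3. For each of these genes every allele-pair array lay above every ey>wge array. With the span trend removed ND-B17.2 no longer passed (0.51, adjusted p = 0.0552) and the other 3 did. ND-15 then passed as well (0.76, adjusted p = 0.0218). ND-15 spans 41305 bases, and its change was 0.44 before the removal and 0.18 with replicate 1 alone.

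Complexes III, IV and V each had 1 subunit that rose at the probe set that stands for it. UQCR-Q, a small subunit of complex III, read 1758, 1885.3 and 2554.2 with the allele pair and 1396.5, 971.6 and 1122 in ey>wge, a rise of 0.82 ± 0.19 (adjusted p = 0.017). COX7A, a subunit of cytochrome c oxidase, read 9891.6, 10309.5 and 9408.7 with the allele pair and 7305.9, 7087.9 and 7772 in ey>wge, a rise of 0.42 ± 0.12 (adjusted p = 0.0382). ATPsynO, a part of the stalk that holds the head of ATP synthase still, read 13377.4, 13503.4 and 16412.2 with the allele pair and 11263.9, 11097.3 and 10357.5 in ey>wge, a rise of 0.40 ± 0.11 (adjusted p = 0.0306). With the span trend removed COX7A (0.34, adjusted p = 0.107) and ATPsynO (0.32, adjusted p = 0.0868) no longer passed. No subunit of complex IV then passed at the probe set that stands for it, and ATPsyndelta of complex V did (0.56, adjusted p = 0.0233). ATPsyndelta spans 4424 bases, and its change was 0.37 before the removal and 0.16 with replicate 1 alone. COX7A was the only one of the 3 whose replicate 3 was not its highest allele-pair array. COX7B of complex IV did not pass with all arrays (0.45, adjusted p = 0.0644), while its second probe set did (0.47, adjusted p = 0.0412). Complex II had none that passed, although 2 of its 3 subunits had an unadjusted p under 0.05 in limma, and SdhB, SdhC and SdhD had changes of 0.45, 0.40 and 0.30.

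Not every subunit was higher. ND-42, an accessory subunit of complex I, read 2993.1, 3567.9 and 3679.2 with the allele pair and 3944.4, 3850 and 3594.6 in ey>wge, a change of -0.16 ± 0.12 (adjusted p = 0.499). ND-51, which binds NADH and starts the electron path, read 2392.1, 2450 and 2489 with the allele pair and 2187.3, 2589 and 2397.4 in ey>wge, a change of 0.03. ATPsyngamma, the turning axle of ATP synthase, had -0.15 ± 0.15 at the probe set with the higher mean and 0.41 ± 0.12 (adjusted p = 0.0484) at its other one, so its probe sets disagree. RFeSP, the Rieske iron-sulfur protein of complex III, had -0.08 ± 0.13.

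**Figure D2:**
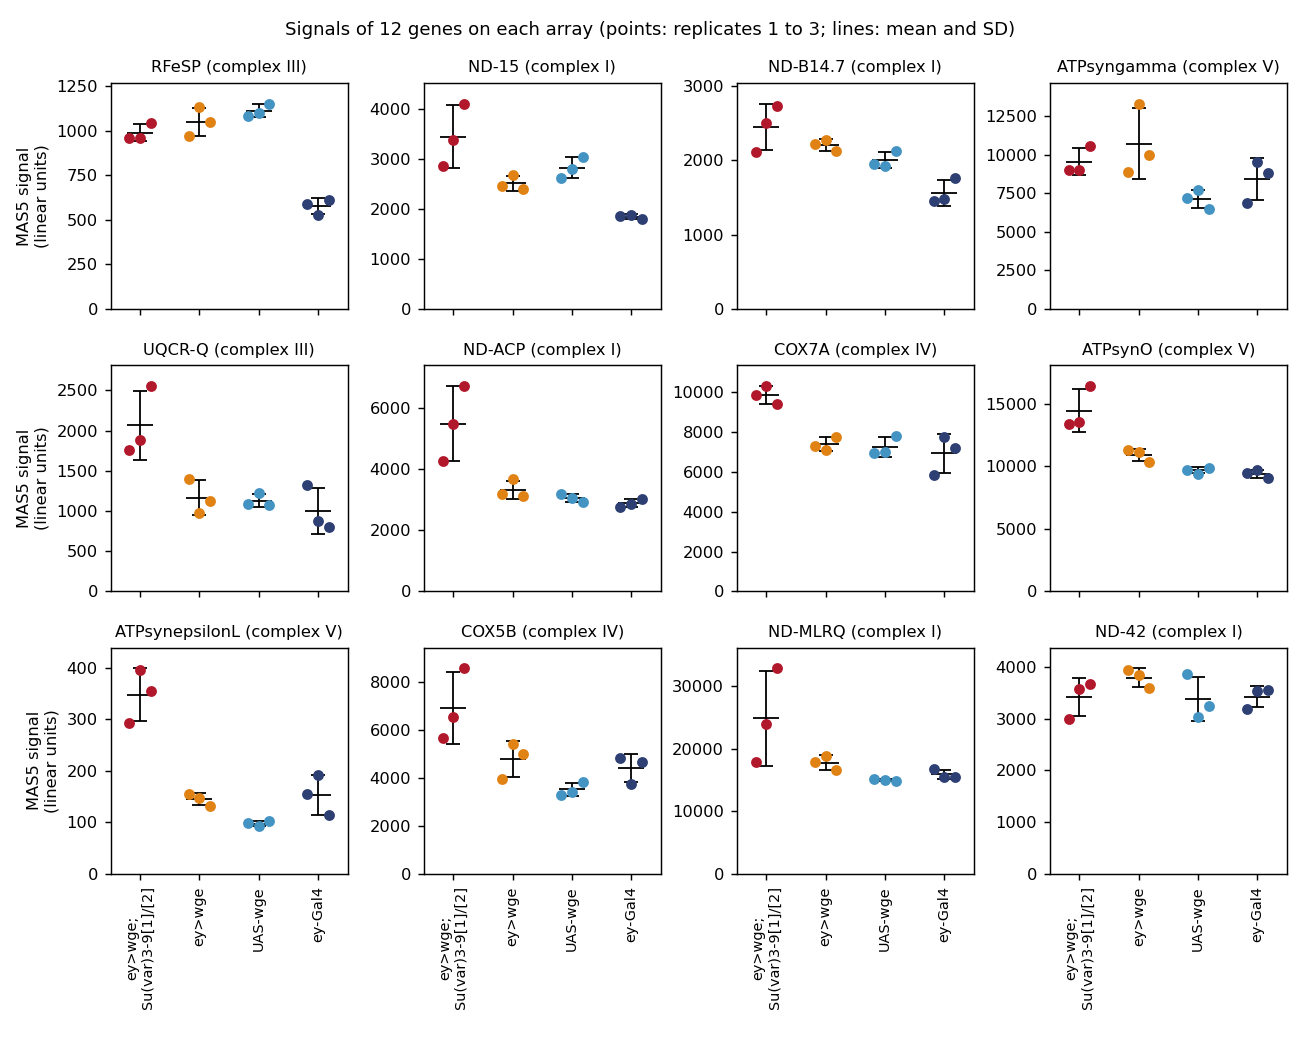
MAS5 signal (linear axis from 0) of 12 genes on each array, by genotype; points are replicates 1 to 3 and black lines the mean with the SD of 3 arrays. ATPsynepsilonL, UQCR-Q, ND-ACP, COX7A and ATPsynO have all 3 allele-pair arrays above the ey>wge arrays, and RFeSP and ND-15 are low in ey-Gal4 alone. For ND-42 the allele-pair arrays overlap those of each other genotype.

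The number of calls against ey>wge changed with the arrays used. With replicate 1 as the only allele-pair array, no subunit was called, 7 of 52 had an unadjusted p under 0.05 in limma, and the median change was 0.09; 0.47% of all probe sets were called higher. With the span trend removed 6 subunits were called higher and the median was 0.29, where 2.77% of all probe sets were. Of the 7 subunits called with all arrays, 4 were among those 6. Without allele-pair replicate 1, 35 of the 52 subunits were called, against 7.91% of all probe sets called higher. Without replicate 2 the number was 3, against 0.659%, and without replicate 3 it was 2, against 0.897%. Leaving out ey>wge replicates 1, 2 and 3 gave 3, 1 and 2 subunits, where 0.789%, 0.883% and 0.861% of all probe sets were called higher. The part of these arrays in the rise was not tested.

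Against both controls together, the allele pair had higher signals for nearly all subunits. Of 62 tested members 44 rose and none fell, where 21.1% of all probe sets were called in either direction and 8.46% were called higher. Higher calls over all probe sets were 1169 of 2920, and 1438 of 2719 after each array was centred on its median. Of the 52 subunits 43 rose, with a median of 0.48 and a range of 0.00 to 0.95, where the median of all probe sets was -0.08. For 25 of 52 subunits all 3 allele-pair arrays lay above all 6 control arrays, against 6.08% of all probe sets. This comparison shares the allele-pair arrays with the one against ey>wge.

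The members with the largest rises were ATPsynepsilonL, UQCR-Q (0.95 ± 0.17, adjusted p = 0.000599) and ND-ACP (0.86 ± 0.12, adjusted p = 9.56e-05), followed by COX5B, COX7C and UQCR-6.4. COX5B, a subunit of cytochrome c oxidase, read 5662.4, 6570.4 and 8588.8 with the allele pair, against 3299.2, 3428.5 and 3828.4 in UAS-wge and 4825.9, 3757.6 and 4680.3 in ey-Gal4. It rose by 0.80 ± 0.14 (adjusted p = 0.000485). COX7C, another of its subunits, rose by 0.73 ± 0.13, with 6772.6, 8695.6 and 10770.1 against 4564.7 to 5688.9 over the controls. UQCR-6.4, a small subunit of complex III, rose by 0.72 ± 0.16, with 6915.2, 9442.8 and 13865.8 against 5302.5 to 7041, so that its replicate 1 lay within the controls. ND-MLRQ, whose mammalian counterpart is now counted with complex IV, rose by 0.65 ± 0.13, with 17830.1, 23951.3 and 32907.7 against 14820.9 to 16771.8.

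The 9 tested subunits that did not pass were 6 of complex I, 2 of complex III and 1 of complex V. ND-42 had a change of 0.00 and ND-51 a change of 0.11, the lowest of the 52. RFeSP (0.30 ± 0.12, adjusted p = 0.0797) and ATPsyngamma (0.31 ± 0.13, adjusted p = 0.108) also stayed short of the threshold. RFeSP differed between the controls and ATPsyngamma between probe sets. The other probe set of ATPsyngamma rose by 0.57 ± 0.10 and passed (adjusted p = 0.000954). ND-B12 and UQCR-11, the subunits with the lowest tested signals, had changes of 0.32 and 0.49 with standard errors of 0.31 and 0.22.

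With replicate 1 as the only allele-pair array, 2 subunits were called higher against both controls, ND-ACP (0.52, adjusted p = 0.0243) and ATPsynO (0.49, adjusted p = 0.0135), and 1.66% of all probe sets were. The median over subunits was then 0.24, and 50 of 52 lay above the control mean on that array. With the span trend removed 39 subunits were called higher, with a median of 0.40, where 11.5% of all probe sets were. Of the 43 called with all arrays, 37 were still called then, and 2 others were gained, ND-75 and UQCR-11, which span 3037 and 5463 bases. Without allele-pair replicate 1, 2 or 3 the number called was 45, 26 or 23, where 12.2%, 4.77% and 4.76% of all probe sets were called higher. Subunit genes are short: their median span was 1186 bases, against 2552 for all single genes tested.

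The change was also read by gene span. Among genes spanning up to 1416 bases, the allele pair against both controls had a median change of 0.19 over 2422 genes and of 0.48 over 33 subunits. Over spans up to 2552, up to 5971 and above 5971 bases all genes had medians of 0.03, -0.14 and -0.35, and the subunits 0.40 (n = 10), 0.45 (n = 7) and 0.61 (n = 2). The last class holds too few subunits for its value to be read.

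**Figure D3:**
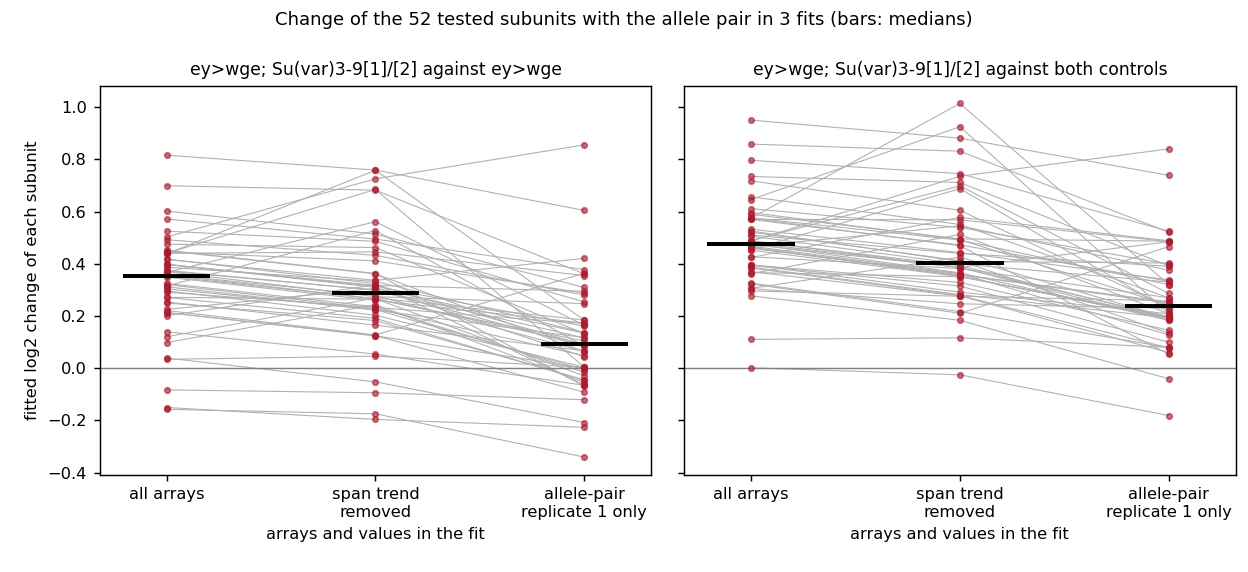
Fitted log2 change of each of the 52 tested subunits (points joined by grey lines) with the allele pair, against ey>wge at left and against both controls at right, from all arrays, after removal of the span trend, and with allele-pair replicate 1 alone. Black bars are medians: 0.36, 0.29 and 0.09 at left, and 0.48, 0.40 and 0.24 at right.

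Against both controls the median change with the allele pair was 0.47 over the 26 tested subunits of complex I, 0.43 over the 3 of complex II, 0.48 over the 6 of complex III, 0.53 over the 7 of complex IV and 0.44 over the 10 of complex V. The number that rose was 20, 3, 4, 7 and 9 in the same order. The medians thus spanned 0.10, and subunits within complex I ran from 0.00 to 0.86, within complex III from 0.30 to 0.95 and within complex IV from 0.40 to 0.80. The span of the medians moved with the processing. It was 0.247 after quantile normalization, 0.212 without allele-pair replicate 2 and 0.155 without replicate 3. With the span trend removed it was 0.194, with medians of 0.39, 0.38, 0.58, 0.44 and 0.45 for complexes I to V. Against ey>wge the medians were 0.36 for complex I, 0.40 for complex II, 0.36 for complex III, 0.42 for complex IV and 0.29 for complex V. Whether the complexes differ from each other was not tested, since their subunits are not replicates.

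Array by array, the complexes kept together. The median deviation of complex I from the control mean was 0.20, 0.49 and 0.72 on allele-pair replicates 1, 2 and 3, that of complex II 0.24, 0.54 and 0.66, that of complex III 0.32, 0.44 and 0.70, that of complex IV 0.39, 0.58 and 0.71, and that of complex V 0.26, 0.45 and 0.71. Replicate 1 was lowest and replicate 3 highest in each complex. Over all probe sets the same medians were 0.01, -0.11 and -0.14, so that replicate 3 was lowest there. Of 52 subunits, 50, 52 and 51 lay above the control mean on these arrays, against 43, 46 and 51 on the ey>wge arrays. The highest value of any complex on a control array was 0.24, for complex III on UAS-wge replicate 3.

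**Figure D4:**
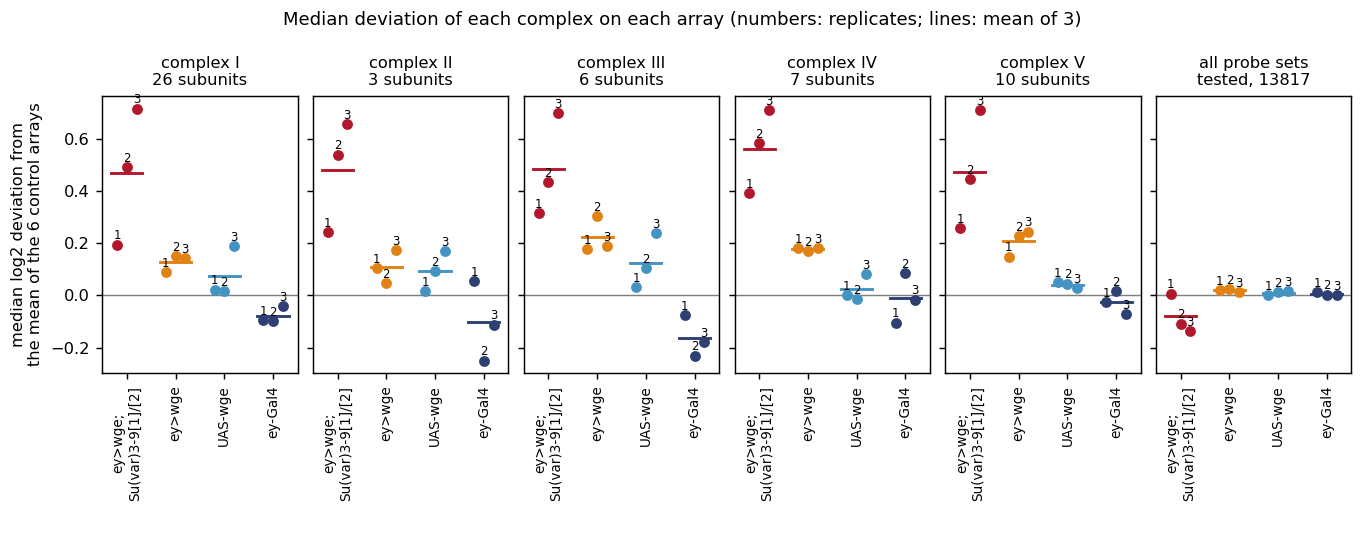
Median log2 deviation from the mean of the 6 control arrays, for the tested subunits of each complex and for all probe sets; numbers mark replicates and lines the mean of 3 arrays. In every complex the allele-pair arrays lie highest, at 0.20 to 0.72, and the ey>wge arrays lie between 0.05 and 0.30, while all probe sets lie between -0.14 and 0.02.

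In complex V the catalytic ATPsynbeta rose by 0.36 ± 0.12 (adjusted p = 0.0413) against both controls, at 9839.9, 9641.4 and 13818.6 against 7326.2 to 10132.6. ATPsynC, the rotating ring, rose by 0.42 ± 0.10, with 20877.1, 19546.1 and 19508.4 against 12078.9 to 17886.6. ATPsyndelta, of the central stalk, rose by 0.49 ± 0.10, and the stalk subunits ATPsynO, ATPsynB, ATPsynD and ATPsynCF6 by 0.59, 0.58, 0.39 and 0.38. Of these, ATPsynD (0.32, adjusted p = 0.0522) and ATPsynCF6 (0.28, adjusted p = 0.142) did not pass after removal of the span trend. In complex II the iron-sulfur subunit SdhB rose by 0.43 ± 0.12 (adjusted p = 0.017) and the membrane anchors SdhC and SdhD by 0.60 and 0.37, of which SdhD did not pass with the span trend removed (0.28, adjusted p = 0.113). In complex III the electron carrier Cyt-c1 rose by 0.47 ± 0.10 (adjusted p = 0.00323), with 6749.4, 6961.6 and 7902.5 against 4488.1 to 6056.2.

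Markers of the disc and of other tissues also moved with the allele pair. Against both controls all 9 eye disc markers fell, with a median of -1.82 and a summed signal of 6244 to 8423, against 25565 to 28897 in UAS-wge and 23173 to 27790 in ey-Gal4. Of 4 antenna markers 2 fell, dan and danr, with a median of -0.73 and a sum of 4011 to 5086, against 6783 to 7646 in UAS-wge and 6564 to 7533 in ey-Gal4. Of 7 hemocyte markers 5 fell, with a median of -0.88 and a sum of 2757 to 4139, against 14422 to 22105 in UAS-wge and 3290 to 4500 in ey-Gal4. Of 4 brain markers 3 fell, brp, nSyb and repo, and dpn was not called lower. Their sum was 972.9 to 1575.5, against 1055.9 to 1438 in UAS-wge and 1447.5 to 1499.5 in ey-Gal4, and so overlapped both controls. With the span trend removed 2 brain markers were lower and 1 higher, and 2 antenna markers were lower and 1 higher. With replicate 1 alone the medians of the brain and antenna markers were -0.47 and -0.63. Muscle is rich in mitochondria, and 3 of 4 muscle and myoblast markers were lower with the allele pair than in ey>wge (up, Tm2 and Act87E), with a summed signal of 909 to 1591 against 2630 to 3392. Over the controls the sum was 1299 to 1823 in UAS-wge and 2382 to 5219 in ey-Gal4, and 2 of the 4 were lower against both controls. None of 4 fat body markers passed against ey>wge, none had an unadjusted p under 0.05 in limma, and their sum was 196 to 727 with the allele pair and 149 to 249 in ey>wge. Against both controls 2 of them were higher, Lsp2 and Fbp2, with a sum of 86.9 to 196 in UAS-wge and 133 to 167 in ey-Gal4. The fat body sum was highest on allele-pair replicate 1, where Lsp2 read 431.8, against 87.2 and 114.7 on replicates 2 and 3. No marker of these lists was below the filter. Of 9 eye disc markers, toy was lower with the allele pair than in ey>wge. The part of these tissues in the rise of the subunits was not tested.

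Winged eye on its own was set against the pair of parental controls. The subunits were slightly higher in ey>wge, with a median of 0.14 over 52 subunits, where all probe sets had 0.01, and no single member passed. In limma 8 of 62 tested members had an unadjusted p under 0.05, where 1635 of 13817 probe sets did, and 2.97% of all probe sets were called. For 3 of 52 subunits all ey>wge arrays lay above all control arrays, against 3.21% of all probe sets. The medians were 0.13 in complex I, 0.07 in complex II, 0.21 in complexes III and IV and 0.18 in complex V. The 9 eye disc markers all fell in ey>wge, with a summed signal of 8360 to 9459, and the part of this loss in the shift was not tested.

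ATPsyngamma had the largest change of any member in ey>wge against both controls, 0.46 ± 0.13 (adjusted p = 0.0725). It read 8873.4, 13297.7 and 9954.2 in ey>wge, 7211.7, 7682.7 and 6473.8 in UAS-wge and 6885.1, 9529.7 and 8781.5 in ey-Gal4, so that replicate 2 of ey>wge stood above the rest. Its second probe set had a change of 0.15. It passed in the fits without allele-pair replicate 1 (adjusted p = 0.0362), without allele-pair replicate 3 (adjusted p = 0.0451) and without ey>wge replicate 1 (adjusted p = 0.0435). Against UAS-wge alone ATPsyngamma rose by 0.57 ± 0.15 (adjusted p = 0.039), the 1 member called there, where 3.7% of all probe sets were. That call was lost in fits that left out any of 7 arrays, with adjusted p of 0.0533 to 0.252, the highest without ey>wge replicate 2 (a change of 0.40), and with the mean of the gene's probe sets (0.39, adjusted p = 0.135). The lowest change in ey>wge against both controls was that of ATPsynGL (-0.27), whose signals were between 2.3 and 41.8. The lowest members of the other comparisons, COX6AL, UQCR-14L and COX4L, also had means under 20 and did not pass.

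Against ey-Gal4 alone 2 members rose in ey>wge, RFeSP (0.84 ± 0.13, adjusted p = 0.000823) and ND-B14.7 (0.50 ± 0.13, adjusted p = 0.0388), where 3.63% of all probe sets were called. ND-B14.7, an accessory subunit of complex I, read 2222.3, 2272.5 and 2121.5 in ey>wge and 1452.5, 1471.1 and 1762 in ey-Gal4. UAS-wge read 1954.3, 1918.3 and 2127.4, overlapping ey>wge and lying above ey-Gal4. Its call was lost in fits that left out any of 9 arrays, with adjusted p up to 0.171. The median over the 52 subunits was 0.21 against ey-Gal4 and 0.08 against UAS-wge, and all 3 ey>wge arrays lay above all 3 arrays of that control for 25 and 9 of them, against 11.1% and 11% of all probe sets. For 2 subunits all 3 ey>wge arrays lay below all 3 UAS-wge arrays, against 11.6% of all probe sets. These comparisons share the ey>wge arrays.

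The controls themselves differed at RFeSP and ND-15, the members called between UAS-wge and ey-Gal4, where 4.99% of all probe sets were. RFeSP read 1086.3, 1102.1 and 1152.4 in UAS-wge and 592, 529.6 and 612.2 in ey-Gal4, a difference of 0.93 ± 0.13 (adjusted p = 0.0002). The arrays that carry UAS-wge all lay near the UAS-wge level, with 962.8, 962.4 and 1043 in the allele pair and 969.9, 1131.3 and 1049.2 in ey>wge. ND-15, an accessory subunit of complex I, read 2617.4, 2792.4 and 3035.7 in UAS-wge and 1848.9, 1885.8 and 1796.4 in ey-Gal4, a difference of 0.60 ± 0.13 (adjusted p = 0.00917). It read 2847, 3368.5 and 4096.6 with the allele pair and 2454.1, 2673.6 and 2393.8 in ey>wge. The ND-15 call was lost without UAS-wge replicate 3 (adjusted p = 0.0584). All 7 hemocyte markers were also higher in UAS-wge, with a summed signal of 14422 to 22105 against 3290 to 4500 in ey-Gal4, 2757 to 4139 with the allele pair and 2697 to 2967 in ey>wge; their part in the 2 differences was not tested.

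Other genes of the mitochondrion and other large protein complexes were measured beside the subunits. With the allele pair against both controls, 37 of 69 tested mitochondrial ribosomal protein genes rose, with a median of 0.46, and 27 of 40 cytosolic ribosomal protein genes, with a median of 0.37. Of 32 proteasome genes 16 rose, with a median of 0.32, and none fell in any of these 3 lists. Against ey>wge 7, 4 and 8 of them rose, with medians of 0.39, 0.29 and 0.27. These genes are short like the subunits, with median spans of 909, 1086 and 1378 bases. With allele-pair replicate 1 alone their medians against both controls were 0.11, 0.21 and 0.18. After removal of the span trend 32, 19 and 12 rose against both controls, with medians of 0.38, 0.32 and 0.30, and 3, 0 and 3 against ey>wge, where 25, 16 and 15 had an unadjusted p under 0.05 in limma.

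Genes that feed or build the respiratory chain were measured as well. The citric acid cycle list also holds PCB, pyruvate carboxylase, and Idh, which is separate from Idh3a, Idh3b and Idh3g. Of its 13 tested genes, 2 rose with the allele pair against both controls, with a median of 0.12. None passed against ey>wge, where the median was -0.20 and 5 had an unadjusted p under 0.05 in limma. Of 9 glycolysis genes 2 rose, Tpi (0.49, triosephosphate isomerase) and Eno (0.45, enolase), 1 fell, Ald1 (-0.46, aldolase), and the median was 0.14. Of 13 assembly factors 3 rose, with a median of 0.21: Sdhaf3 (0.62), which helps build succinate dehydrogenase, and Scox (0.53) and Cox17 (0.48), copper carriers for cytochrome c oxidase. None of the assembly factors passed against ey>wge, where 2 had an unadjusted p under 0.05 in limma. The median spans of these 3 lists, in the same order, were 3464, 4139 and 1424 bases. Their medians against both controls with the span trend removed were 0.28, 0.14 and 0.16, with 4, 3 and 3 genes higher and none lower, so that the call of Ald1 was lost (-0.17, adjusted p = 0.48). Against ey>wge 1 gene of the citric acid cycle list, Idh, 2 glycolysis genes, Tpi and Eno, and no assembly factor were then higher. The medians were 0.03, 0.11 and 0.17. With replicate 1 alone the medians against both controls were 0.13, 0.14 and 0.01, and 1, 0 and 0 genes were called higher.

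The genes of the citric acid cycle list that rose against both controls were PCB (0.87, adjusted p = 0.000293) and Scsalpha1 (0.38, adjusted p = 0.0084), a subunit of succinyl-CoA synthetase. The controls differed at PCB and not by a call at Scsalpha1, which averaged 5728 ± 612 with the allele pair, 4999 ± 329 in ey>wge, 4195 ± 44.1 in UAS-wge and 4567 ± 216 in ey-Gal4 (SD, n = 3 each). PCB, pyruvate carboxylase, read 2219 ± 281 (SD, n = 3) with the allele pair, 2218 ± 458 in ey>wge, 889.9 ± 121 in UAS-wge and 1635 ± 166 in ey-Gal4. It rose by 0.86 ± 0.14 in ey>wge against both controls (adjusted p = 0.000937), by 1.29 against UAS-wge, and by 0.42 against ey-Gal4, which did not pass (adjusted p = 0.216). Idh3b and Idh3g, subunits of the NAD-dependent isocitrate dehydrogenase, had differences of -1.43 and -1.39 (log2) in UAS-wge against ey-Gal4. Idh3b averaged 808.8 ± 12.4 with the allele pair, 1076 ± 54.9 in ey>wge, 442.9 ± 58.7 in UAS-wge and 1226 ± 196 in ey-Gal4 (SD, n = 3 each), so that ey>wge passed against both controls (0.54, adjusted p = 0.0295) and UAS-wge (1.26) and not against ey-Gal4 (-0.17, adjusted p = 0.715).

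Among 16 genes of mitochondrial biogenesis and transport, sesB, the carrier that exchanges ADP and ATP across the inner membrane, was the member that rose in ey>wge against both controls. It averaged 33394 ± 2255 with the allele pair, 29465 ± 1655 in ey>wge, 22916 ± 1486 in UAS-wge and 22063 ± 1570 in ey-Gal4 (SD, n = 3 each), a rise of 0.39 ± 0.09 (adjusted p = 0.0173) for ey>wge over the controls. TFAM, which packs and transcribes mitochondrial DNA, rose with the allele pair by 0.61 ± 0.17 (adjusted p = 0.0408) against ey>wge. It read 1262.8, 1983 and 2046.8 with the allele pair and 1106, 1019.2 and 1271.6 in ey>wge, so that allele-pair replicate 1 lay within ey>wge. In the same comparison ewg, the fly relative of the nuclear respiratory factor, fell by 0.94 and Pink1, a kinase of mitochondrial quality control, fell by 0.73 on the log2 scale. Against both controls 3 of the 16 rose, sesB, TFAM and porin, and 4 fell, ewg, Pink1, PolrMT and Opa1, with a median of -0.06. The list has a median span of 4494.5 bases, and with replicate 1 alone 1 of its genes was called higher and none lower. After removal of the span trend 5 of the 16 rose against both controls and ewg alone fell (-0.60, adjusted p = 0.00293), with a median of 0.08. Pink1 (-0.43, adjusted p = 0.0505), PolrMT (-0.39) and Opa1 (-0.23) then did not pass. Against ey>wge TFAM (0.60, adjusted p = 0.0384) and ewg (-0.66, adjusted p = 0.0154) passed with the trend removed and Pink1 (-0.58, adjusted p = 0.0571) did not.

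A further 4 subunits carry older symbols, and they were picked after these data were seen. levy and cype, of complex IV, rose with the allele pair against both controls by 0.54 and 0.62, and neither passed against ey>wge (0.36 and 0.38). blw, the alpha subunit of ATP synthase, had 0.15 against both controls and -0.15 against ey>wge, and sun, the epsilon subunit, 0.34 and 0.09. None of the 4 passed in ey>wge against both controls, where blw had 0.30 (adjusted p = 0.094). After removal of the span trend levy, cype and blw (0.28, adjusted p = 0.0396) passed with the allele pair against both controls.

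**Figure D5:**
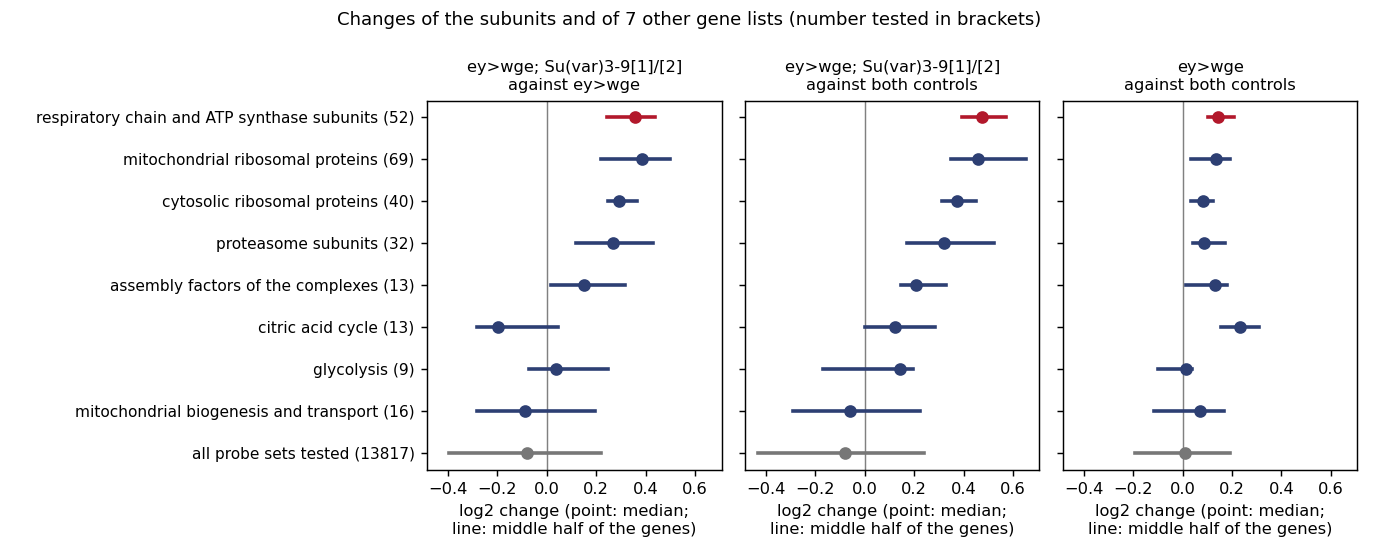
Median log2 change (points) with the first and last quartile (lines) for the tested subunits, 7 other gene lists and all probe sets, in 3 comparisons. With the allele pair the subunits (0.36 and 0.48) and mitochondrial ribosomal proteins (0.39 and 0.46) lie highest and all probe sets at -0.08, and in ey>wge against both controls the subunits lie at 0.14 and the citric acid cycle at 0.23.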

How the data were processed

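RNA from 12 arrays (4 genotypes, 3 biological replicates each, 100 ng of RNA from 30 disc pairs) was amplified and hybridised, per the labels. The deposited values are linear signal intensities made with MAS5, per the submitters' processing notes, and every array has a mean near 500 once 2% is trimmed from each end. The MAS5 version and detection calls are not given in the sources used here. Symbols came from the platform annotation, and gene spans and chromosomes from RefSeq.

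Of 18952 probe sets, 183 array controls were left out, and a probe set was tested if it exceeded its own array's 40th percentile on at least 3 arrays. Changes are differences of log2(signal + 16), which understate those of dim genes. They were fitted in limma 3.58.1 (R 4.3.3) with 1 mean per genotype over all 12 arrays and a trended variance prior, for 6 contrasts. Calls are two-sided and need a p under 0.05 after Benjamini-Hochberg adjustment over 13817 probe sets. The fit was tried on simulated data with independent noise for each probe set. No shift shared by the probe sets of an array was simulated for it, so calls under such a shift were not tested. The span trend was removed by a loess curve per array, over 10752 probe sets.

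Genes were named if called (up to 6 a direction), lowest or highest where none was called, brightest or dimmest of a complex, paired with an L gene, or among the 3 of another list with the smallest adjusted p; other genes were named after their values were seen. Members and lists were chosen with earlier results of these data known. The alternatives covered scaling, pseudocount, filter, variance prior, array weights, replicate block, arrays in the fit, probe set choice and threshold. Motifs in promoters were not searched here.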

Additional observations from a re-analysis of the deposited data

How the results depend on the processing

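Of the 62 tested members, 8 were called higher with the allele pair when set against ey>wge. The count was 5 after quantile normalization, 14 with a 60th percentile filter, 1 without the variance trend, 37 with array weights, 1 with only the arrays of the contrast, 2 at an adjusted p under 0.01, and 0 with replicate 1 as the only allele-pair array (8 at an unadjusted p under 0.05 in limma), where the median was 0.099. Leaving out an array gave 2 to 36, the highest without allele-pair replicate 1, where 7.91% of all probe sets were called higher. Array weights also gave the most calls over all probe sets of any setting, as given below. The share of all probe sets called moved with the setting, so these counts do not describe the members alone. Against both controls the count (44) was 26 without the trend, 27 at an adjusted p under 0.01, and 3 with replicate 1 alone, where the median was 0.238; leaving out an array gave 24 to 46, and the range of complex medians was 0.247 after quantile normalization. For ey>wge against both controls the count (0) was 1 with the 60th percentile filter, 2 with array weights, 2 with only the arrays of the contrast and 2 with replicate 1 alone. Leaving out an array gave 0 to 2, and a range of complex medians of 0.14 to 0.194. Against ey-Gal4 the count (2) was 1 with median centring, 1 without the trend, 1 at an adjusted p under 0.01, 5 with array weights, 5 with only the arrays of the contrast and 6 with replicate 1 alone. The median there was 0.214 with median centring and 0.203 with the 60th percentile filter; leaving out an array gave counts of 1 to 5, medians of 0.172 to 0.199 and ranges of complex medians of 0.0874 to 0.197. Against UAS-wge the count (1) was 0 with median centring, no filter, no trend, the mean of all probe sets or an adjusted p under 0.01, and 2 with array weights, only the arrays of the contrast or replicate 1 alone. Leaving out an array gave counts of 0 to 1, ranges of complex medians of 0.103 to 0.188 and complex II medians of -0.0338 to 0.0667. Between the controls the count (2) was 1 without the trend, 4 with array weights, 4 with only the arrays of the contrast and 6 with replicate 1 alone. Leaving out an array gave counts of 1 to 4, ranges of complex medians of 0.0653 to 0.318 and complex IV medians of -0.00434 to 0.156, and array weights gave a range of 0.193. COX6AL, near background, turned from negative to 0.321 and 0.175 with array weights, and leaving out an array gave -0.549 to 0.314 against ey>wge and -0.602 to 0.0201 against both controls. The cause of these shifts was not tested.

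Over all probe sets 939 were called between allele pair and ey>wge, and 173 with replicate 1 alone to 4409 with array weights over all settings. The other such counts were 410 (250 to 724) in ey>wge against both controls, 502 (267 to 890) against ey-Gal4, 511 (295 to 899) against UAS-wge, 2920 (657 to 6454) for the allele pair against both controls and 690 (398 to 1045) between the controls. Median centring moved the median of all probe sets from -0.08 to 0.04 in the allele pair against both controls, and the members' calls there to 47. Same-numbered arrays of different genotypes had correlated deviations of -0.05 to 0.08 over 18 pairs, so the numbers were taken as names; with a replicate block 12 members were called between allele pair and ey>wge, 44 between allele pair and both controls, and 1 in ey>wge against both controls. Of the single genes named, the call was lost in 31 fits without an array and in 35 with another setting.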
